A study of Homo sapiens with 10 samples.

Results

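The genes of glycolysis and of glucose and lactate transport were followed through treatment with an iron chelator or an antibody against the transferrin receptor in NK-92 cells, a long-established line derived from a human natural killer cell lymphoma. They were chosen by name: 36 gene symbols covering glucose and lactate transporters, the enzymes from hexokinase to lactate dehydrogenase, the regulators of phosphofructokinase and the entry of pyruvate into mitochondria. All 36 were among the 54628 rows of the count table, and 35 of them passed the filter on low counts that left 20125 genes to be tested. PDK4, a pyruvate dehydrogenase kinase, had 0 to 6 counts per library and was not tested.

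Polyadenylated RNA was sequenced from 10 libraries in 5 groups of 2. One group was untreated, at 0 h. The others received 500 µM deferoxamine (DFO), a small molecule that binds iron, or 10 µg/mL PPMX-T003 (T003 below), an antibody against the transferrin receptor, and were collected after 6 h or 24 h. All cells were grown in Artemis Medium-1 with human serum, and no untreated cells collected at 6 h or 24 h are among the groups, so treatment and time in culture cannot be told apart against the untreated libraries. Both agents are compared with the same 2 untreated libraries. Nothing in the labels states that the replicates come from separate cultures. The p-values therefore set each difference only against the spread between libraries of the same group, pooled over the 5 groups. That spread may be technical.

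Library totals were 107117892 to 143575614 estimated counts, at which the floor of 3 counts corresponds to 0.0209 to 0.0278 CPM, the count scaled to library size. TFRC, the gene of the transferrin receptor, stood at 177 and 165 CPM in untreated cells, 361 and 345 after 6 h in DFO, 437 and 419 after 6 h of T003, 834 and 833 after 24 h of DFO, and 845 and 847 after 24 h of T003. All 9 markers of natural killer cells were at or above 1 CPM on average, with a summed level of 2770 to 3290 CPM. Of 7 T cell markers 1 reached that level (TRAC, summed level of the list 14.7 to 24.6 CPM), and none of the B cell, monocyte, erythroid or fibroblast markers did. The summed natural killer marker level averaged 2920 CPM untreated and, at 24 h, 3060 with DFO and 3280 with T003, and the T cell list averaged 16.4, 20.7 and 24.4. The natural killer markers did not all move one way. With DFO at 24 h 2 were higher and 1 lower than untreated at an adjusted p under 0.05 in the edgeR test described below (3.43% and 3.27% of all genes). With T003 4 were higher and 1 lower (7.10% and 5.44%). IL2RB read 1033 CPM untreated, 1185 with DFO and 1305 with T003, and KLRD1 49.95, 39.97 and 42.49. The part of the natural killer and T cell markers in the results was not tested. In a bulk sample, fewer cells of a type and less RNA per cell cannot be told apart.

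Glucose enters a cell through facilitative carriers and is trapped by hexokinase as glucose 6-phosphate. Phosphofructokinase commits it to glycolysis, and the last enzymes turn it into pyruvate, which is either reduced to lactate and exported with a proton or oxidised in mitochondria by the pyruvate dehydrogenase complex. Natural killer cells raise glucose uptake and glycolysis when they are activated. Iron enters the pathway through the prolyl hydroxylases, iron-dependent enzymes that mark the hypoxia-inducible factors for degradation, and many glycolytic genes are textbook targets of these factors.

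The promoters of HK2, PGK1 and LDHA are printed because they hold the 5-letter core of the element that hypoxia-inducible factors bind, in genes whose RNA took different courses below. HK2 rose, and PGK1 and LDHA were not called against untreated cells. Each runs over the 250 bases before the RefSeq start of the gene (GRCh38.p14, plus strand, 5′ to 3′): chr2:74833877-74834126 for HK2, chrX:78103998-78104247 for PGK1 and chr11:18394313-18394562 for LDHA. Capitals mark ACGTG or GCGTG on either strand.
HK2: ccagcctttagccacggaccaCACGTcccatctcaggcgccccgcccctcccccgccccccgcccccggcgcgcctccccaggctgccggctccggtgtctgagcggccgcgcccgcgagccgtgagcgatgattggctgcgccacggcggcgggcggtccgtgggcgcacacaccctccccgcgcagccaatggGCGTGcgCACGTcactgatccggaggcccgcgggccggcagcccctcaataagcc
PGK1: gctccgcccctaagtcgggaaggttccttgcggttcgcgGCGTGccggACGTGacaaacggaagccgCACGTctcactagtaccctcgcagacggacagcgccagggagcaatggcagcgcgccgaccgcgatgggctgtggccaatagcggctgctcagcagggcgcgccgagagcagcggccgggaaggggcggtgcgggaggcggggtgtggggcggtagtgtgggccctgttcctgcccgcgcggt
LDHA: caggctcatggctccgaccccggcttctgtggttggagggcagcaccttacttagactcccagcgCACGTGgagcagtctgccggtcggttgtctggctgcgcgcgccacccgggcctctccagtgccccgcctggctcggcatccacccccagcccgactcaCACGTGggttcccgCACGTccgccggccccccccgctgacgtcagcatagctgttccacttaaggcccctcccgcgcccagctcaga

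The HK2 promoter held matches that begin 229, 55 and 48 bases before the start, and that of PGK1 held matches 211, 202 and 183 bases before it. In the LDHA promoter 5 matches of ACGTG were found, at 185, 184, 87, 86 and 73 bases. Both of its CACGTG words, the letters of the E-box that MYC binds, contain ACGTG on each strand and so account for 4 of those 5. RefSeq promoters were matched for 33 of the 36 members, without SLC2A3, SLC16A1 and PFKFB2. ACGTG was present in 11 of the 33 (33.3%), against 18.5% of all 35116 promoters of that length, and GCGTG in 12 (36.4%), against 32.2%. CACGTG was found in 4 (12.1%), against 6.34%, and at least 1 of ACGTG and GCGTG in 18 (54.5%), against 43.2%. These matches are a description of letters, and binding was not measured.

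Untreated NK-92 cells held a set of glycolytic transcripts led by the lower pathway. Levels of different genes are compared here as CPM per kilobase of the MANE Select transcript, the reference isoform of each gene. ENO1 (enolase) was highest at 2378 ± 18.7 CPM per kb (SD, n = 2), followed by GAPDH (glyceraldehyde 3-phosphate dehydrogenase) at 2140 ± 18.7 and PKM (pyruvate kinase) at 1404 ± 2.15. LDHA (lactate dehydrogenase A) followed at 878, ALDOA (aldolase A) at 710, TPI1 (triosephosphate isomerase) at 516, LDHB at 475, GPI (glucose 6-phosphate isomerase) at 272, PGAM1 (phosphoglycerate mutase) at 219 and PGK1 (phosphoglycerate kinase) at 138. This order depends on the transcript length used: per kilobase of all annotated exons joined, GAPDH led at 1148 CPM per kb, followed by ENO1 at 812, PKM at 377 and LDHA at 327. The committing and uptake steps lay lower with both lengths. Per kilobase of the MANE Select transcript HK1 was at 76.9 CPM, the lactate carrier SLC16A1 at 73.9, PFKP at 70.4, HK2 at 29.0, and the glucose carriers SLC2A1 and SLC2A3 at 25.0 and 20.2. ENO1, GAPDH, PKM and LDHA together took 1.16% to 1.22% of all counts, and the 36 members 1.81% to 1.86%.

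**Figure D1:**
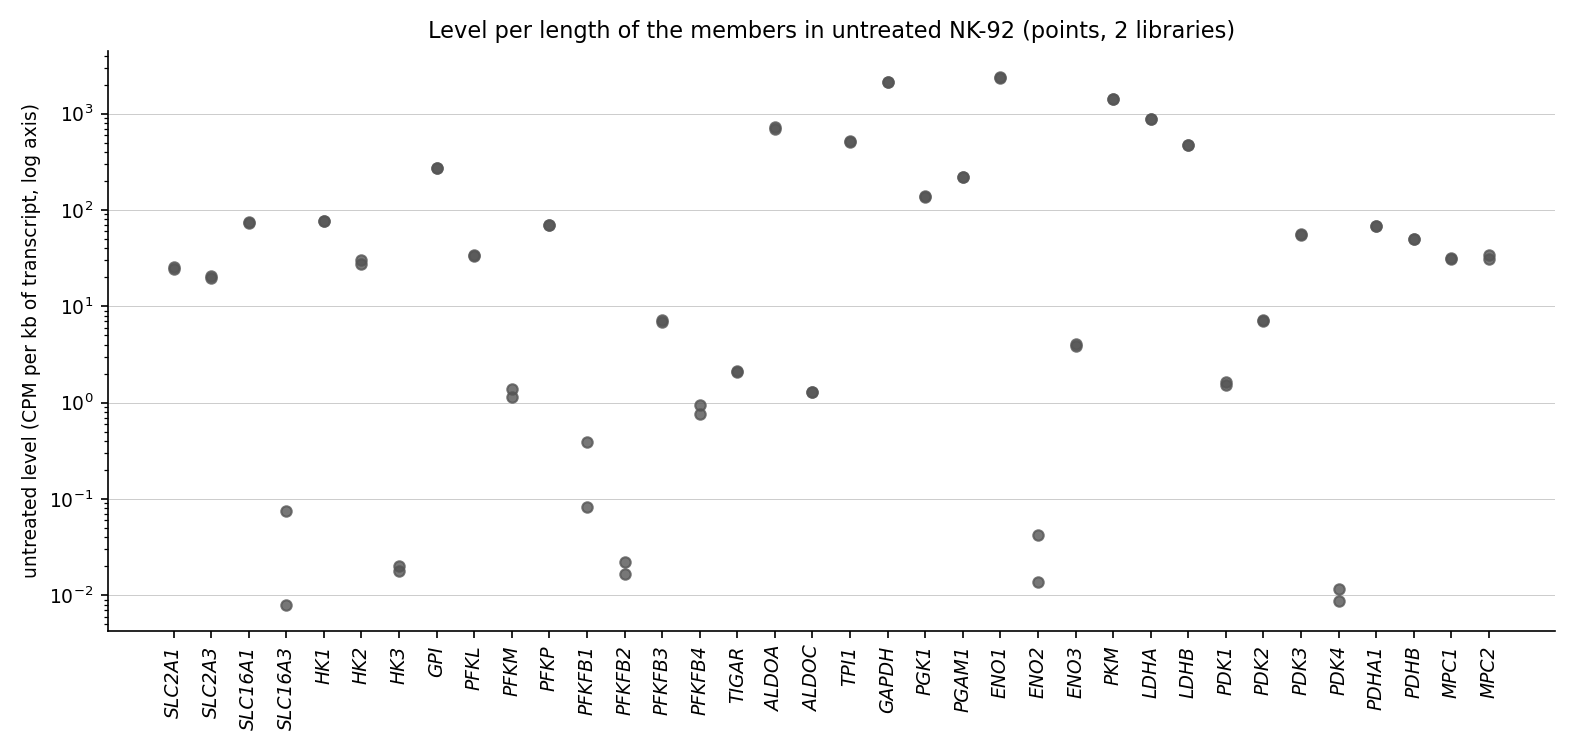
Level of each member in the 2 untreated libraries, as CPM per kilobase of its MANE Select transcript on a log axis. Genes stand in the order of the member list, not by level. The lower glycolytic enzymes lead, with ENO1 at 2378 and GAPDH at 2140 CPM per kb, while SLC2A1, SLC2A3 and HK2 lie between 20.2 and 29.0.

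Several textbook isoforms were near absent. SLC16A3, the lactate exporter known from hypoxic and highly glycolytic cells, had 3 to 25 counts per library, 0.0209 to 0.195 CPM. Its exons overlap those of CSNK1D on the opposite strand by 482 bases, with no strand setting given in the sources used here, so their reads cannot be told apart. HK3 had 0 to 27 counts, ENO2 4 to 18, PFKFB2 0 to 38 and PFKFB1 24 to 103. No treated library held SLC16A3 or ENO2 at a level near that of SLC16A1 or ENO1.

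After 6 h none of the 35 members tested was called with either agent. A gene is called here at an adjusted p under 0.05 in edgeR's quasi-likelihood test, with Benjamini-Hochberg adjustment over all genes. Of all genes 0.0248% were called with DFO and 0.0298% with T003. At an unadjusted p under 0.05 stood 9 of 35 members with DFO and 5 with T003. Of all 20125 genes tested, 2494 with DFO and 1516 with T003 did. By DESeq2 6 members were called with DFO, all lower (GPI, PFKP, TPI1, GAPDH, ENO1 and PKM), by limma-voom 3 (GAPDH, ENO1 and PKM), and with T003 both tools called 0. The log2 differences of those 6 with DFO were small, from -0.06 for GPI to -0.11 for PFKP in the edgeR fit. ENO1, for example, read 4211 and 4258 CPM in untreated cells, 3993 and 4044 after 6 h in DFO and 4041 and 4132 after 6 h of T003. Between the agents at 6 h, 0 members were called, as were 0% of all genes. There 1 of 35 members (PFKP) had an unadjusted p under 0.05, against 1334 of all 20125 genes. DESeq2 and limma-voom called 0 members there too.

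After 24 h a minority of the pathway changed, in both directions and by modest amounts. With DFO 6 of 35 members were called (17.1%), against 6.70% of all genes: SLC2A3, SLC16A1 and HK2 rose, and HK1, GAPDH and ENO1 fell. With T003 9 were called (25.7%), against 12.5% of all genes: SLC2A3, SLC16A1, HK2, PFKP, PFKFB3 and ALDOA rose, and HK1, GAPDH and PDHB fell. With a library left out, the count with DFO was 2 to 5: it was 2 without untreated replicate 2 or DFO replicate 2 of 24 h, 5 without DFO replicate 2 of 6 h, 4 without T003 replicate 1 of 6 h and 3 without any other library. Split by direction, 3.43% of all genes were higher and 3.27% lower with DFO, and 7.10% and 5.44% with T003. Of the 35 members tested, 26 had a mean of at least 10 CPM, as did 8905 of the 20125 genes. Genes at that level were called more often than genes as a whole. The part of level in the share of members called was not tested. Among genes at or above a mean of 10 CPM, 13.6% were called with DFO, against 6 of 26 members (23.1%), and 24.6% with T003, against 9 of 26 (34.6%). The median absolute log2 difference over these 26 members was 0.0449 with DFO and 0.0434 with T003, against 0.0614 and 0.0759 over all genes at that level. Within the 26 abundant members, differences from untreated cells ran from -0.10 to 0.34 on the log2 scale with DFO and from -0.17 to 0.33 with T003.

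**Figure D2:**
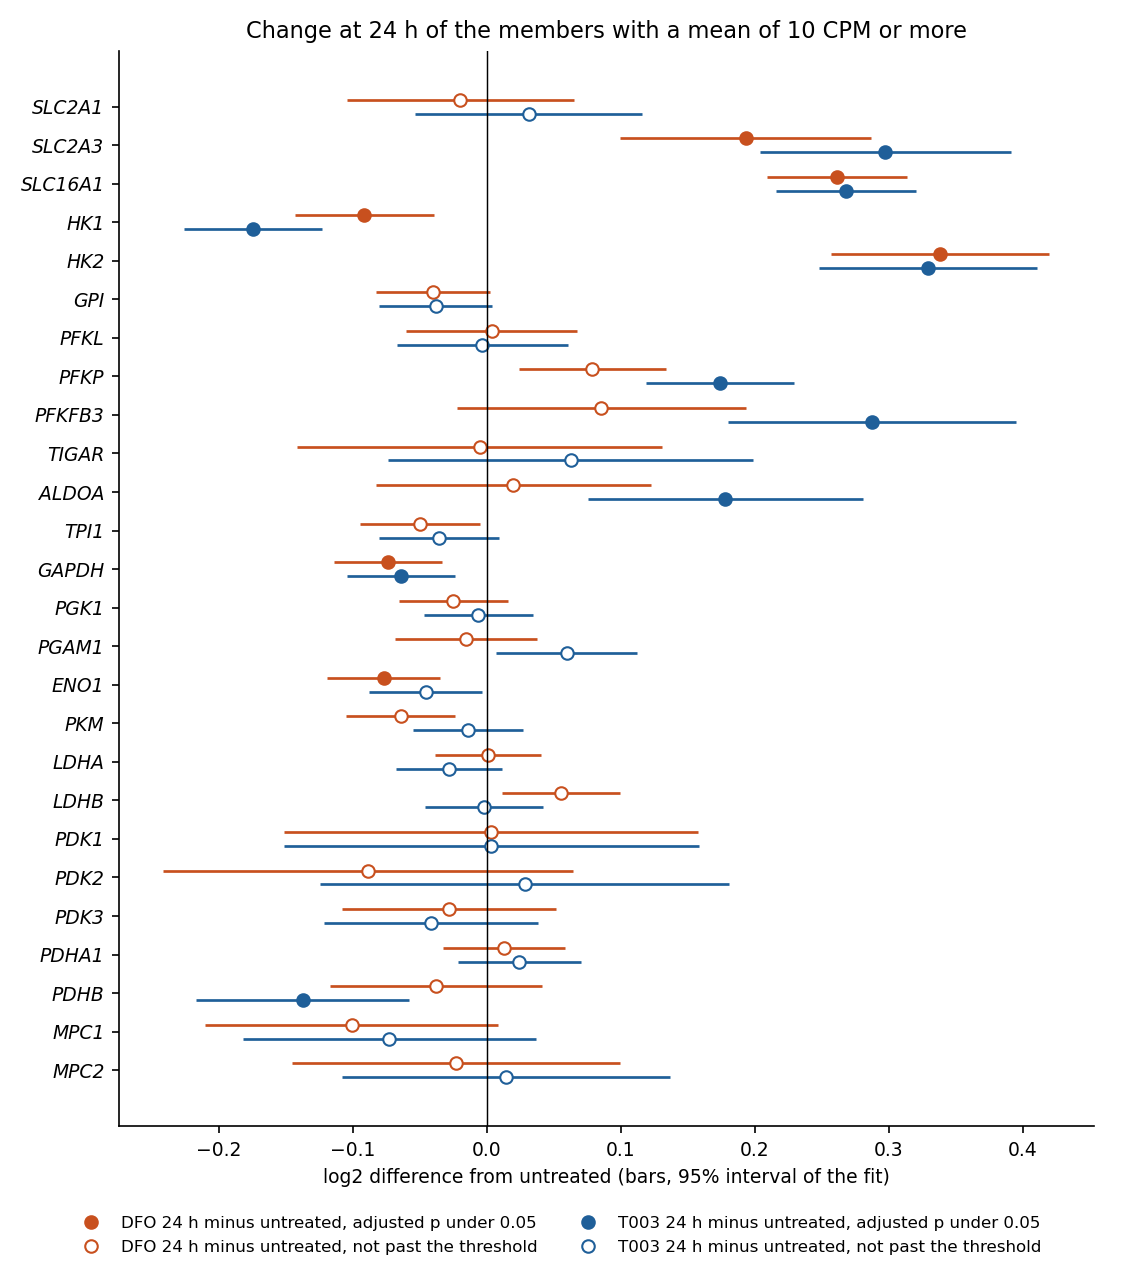
Log2 difference from untreated cells after 24 h of DFO and of T003 for the 26 members with a mean of at least 10 CPM, with 95% intervals (filled points, adjusted p under 0.05). HK2, SLC16A1 and SLC2A3 lie furthest to the right of 0 with DFO, and most lower glycolytic enzymes lie close to 0.

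Among the transporters SLC2A3 and SLC16A1 rose at 24 h. SLC2A3 encodes GLUT3, a high-affinity glucose carrier, and lies at chr12:7919230-7936187 (GRCh38.p14, minus strand). Its level was 78.8 and 75.4 CPM untreated, 78.4 and 74.3 after 6 h in DFO, 74.6 and 80.3 after 6 h of T003, 86.8 and 89.6 after 24 h of DFO, and 92.9 and 96.7 after 24 h of T003. All 4 libraries of 24 h lay above all 6 others. Against untreated cells the log2 difference was 0.19 with DFO (SE 0.0424, adjusted p = 0.0206) and 0.30 with T003 (SE 0.0424, adjusted p = 0.00115). The call with DFO was lost without untreated replicate 2 or without DFO replicate 2 of 24 h (adjusted p up to 0.177), whereas that with T003 held with each library left out. SLC2A3 shares 96.8% of its coding bases with SLC2A14, so reads could be divided between them. SLC2A14 was itself higher with T003 at 24 h (log2 difference 0.42, SE 0.108, adjusted p = 0.0265). Its level was far below that of SLC2A3, at a mean of 2.19 CPM untreated and 2.94 after 24 h of T003. SLC2A1 encodes GLUT1, the common glucose carrier of lymphocytes. It ranged from 81.8 to 88.7 CPM over all 10 libraries and the groups overlapped, with differences of -0.02 (adjusted p = 0.87) and 0.03 (adjusted p = 0.71).

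SLC16A1 encodes MCT1, which carries lactate with a proton in either direction, and lies at chr1:112911847-112956196 (minus strand). Its 2 untreated libraries read 283 and 272 CPM, and all 4 libraries of 6 h lay between 284 and 285. After 24 h it read 332 and 333 CPM with DFO and 337 and 331 with T003, above all other libraries. The log2 difference was 0.26 with DFO (SE 0.0236, adjusted p = 0.000104) and 0.27 with T003 (SE 0.0236, adjusted p = 5.53e-05), about 20% on the linear scale (19.9% and 20.4%). Both calls held in every other fit and with each library left out. MCT1 made up 99.9% of the SLC16A1 and SLC16A3 level per length in untreated cells.

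The hexokinases moved in opposite directions. HK2 is the inducible, mitochondria-binding hexokinase, at chr2:74834127-74893359 (plus strand). Its level was 171 and 155 CPM untreated, 157 and 157 after 6 h in DFO, 160 and 162 after 6 h of T003, 207 and 205 after 24 h of DFO, and 206 and 204 after 24 h of T003. The libraries of 24 h stood apart from all earlier ones with no overlap, and the untreated pair was the widest. The log2 difference from untreated cells was 0.34 with DFO (SE 0.0369, adjusted p = 0.000331) and 0.33 with T003 (SE 0.0369, adjusted p = 0.000255), the largest rise with DFO among the abundant members. Between the agents it differed by 0.01 (95% interval -0.07 to 0.09). HK1, the constitutive hexokinase at chr10:69270000-69401882 (plus strand), read 279 and 275 CPM untreated, 265 and 255 after 24 h of DFO and 244 and 248 after 24 h of T003. It fell by 0.17 on the log2 scale with T003 (SE 0.0235, adjusted p = 0.000805). With DFO HK1 fell by 0.09 (SE 0.0234, adjusted p = 0.042), a call that was lost with each of the 10 libraries left out in turn (adjusted p 0.0577 to 0.345). It was also lost with no filter, with replicate number as a block and with the compared groups alone.

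As a share of the HK1, HK2 and HK3 level per length, HK2 took 27.3% ± 1.17 (SD, n = 2) in untreated cells and 27.3% and 27.4% at 6 h. At 24 h its share was 33.7% ± 0.414 with DFO and 34.8% ± 0.421 with T003. The level of the share depends on the transcript length used: with all exons joined it was 40.6% untreated and 47.9% and 49.2% at 24 h. The exact permutation test over the 5 groups, made on the share of HK1, gave p = 0.0138 and an adjusted p = 0.0413 over 9 families. That call is not firm: it was lost with shares of CPM not divided by length (adjusted p = 0.054), with that longer length (adjusted p = 0.0508), and in 7 of the 10 fits that left out a library, namely either DFO library of 6 h (0.0571 and 0.0603), T003 replicate 1 of 6 h (0.054), either DFO library of 24 h (0.124 and 0.0595) and either T003 library of 24 h (0.1 and 0.0698).

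**Figure D3:**
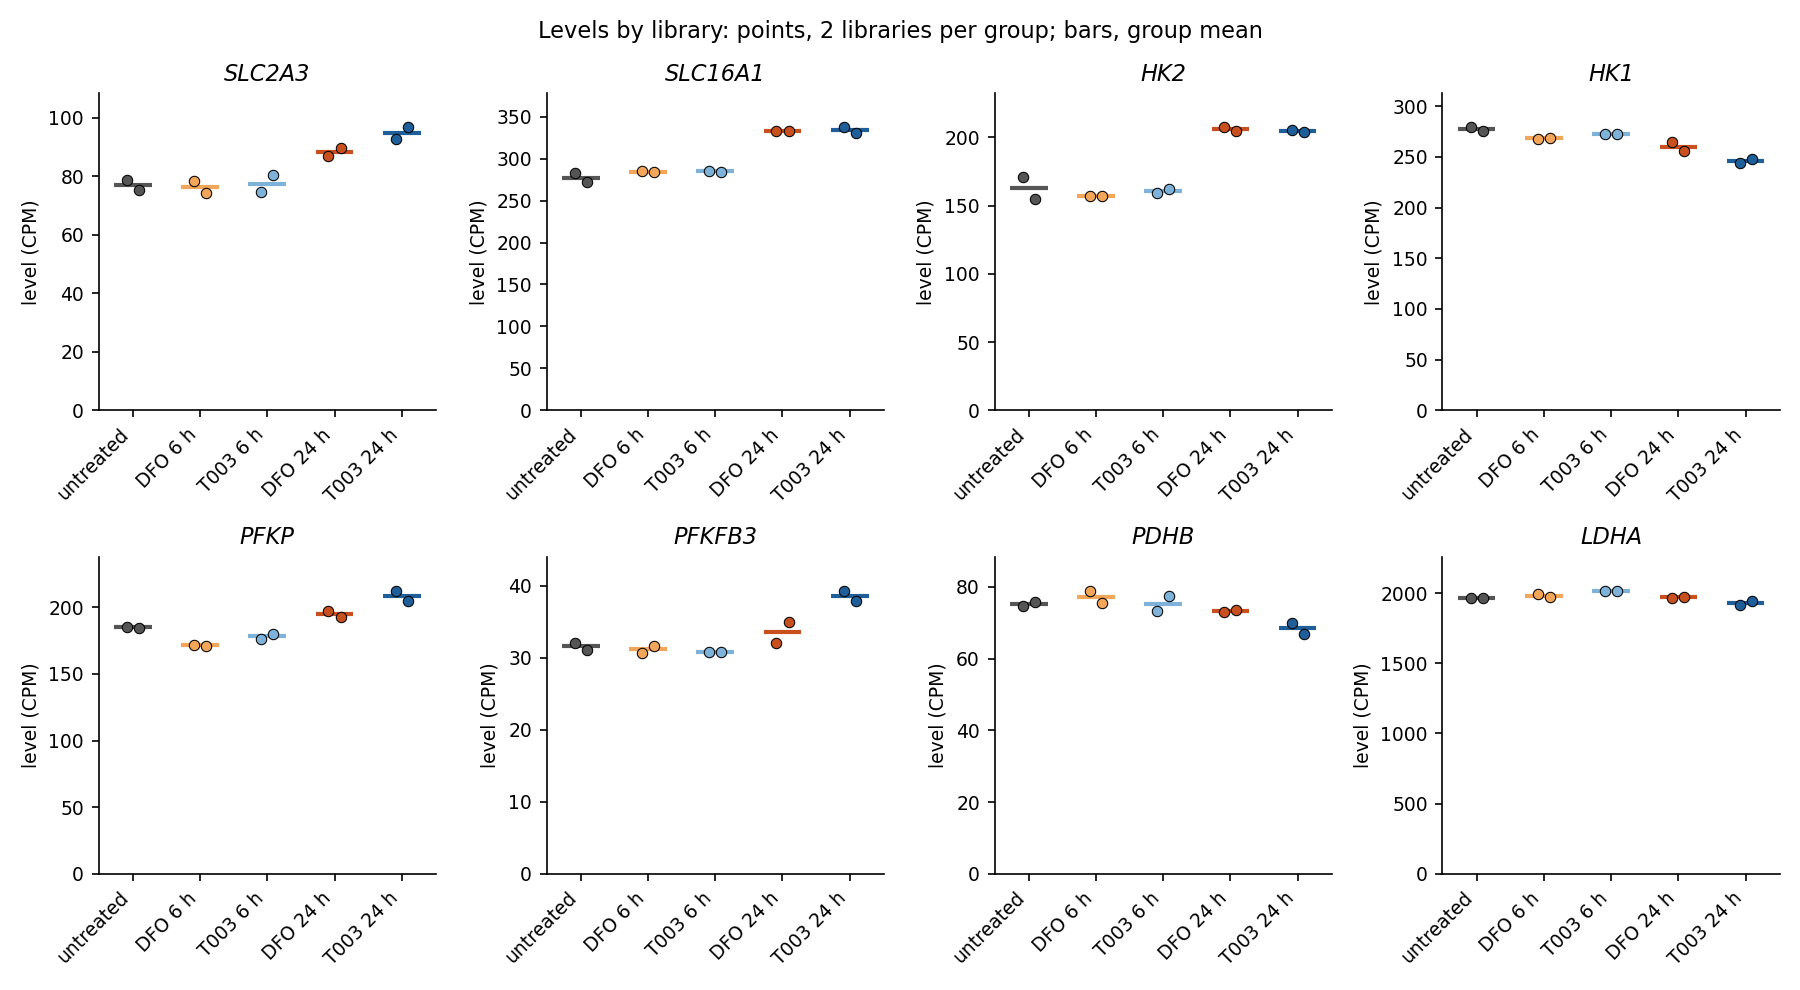
Level in CPM of 8 members in each library (points, 2 per group) with group means (bars), on axes that start at 0. SLC2A3, SLC16A1 and HK2 are highest in the 4 libraries of 24 h, HK1 is lowest there, and PFKFB3 is highest after 24 h of T003, at 39.3 and 37.8 CPM.

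The phosphofructokinase gene PFKP, and PFKFB3, were called higher with T003 at 24 h than in untreated cells. PFKP, the platelet-type subunit and the main one here, lies at chr10:3067548-3136805 (plus strand). It read 186 and 184 CPM untreated, 172 and 171 after 6 h in DFO, 176 and 180 after 6 h of T003, 198 and 193 after 24 h of DFO and 212 and 205 after 24 h of T003. Levels at 6 h lay below, and at 24 h above, both untreated libraries. Against untreated cells the log2 difference at 24 h was 0.17 with T003 (SE 0.0249, adjusted p = 0.00117) and 0.08 with DFO (SE 0.0249, adjusted p = 0.0966), the latter not called. Against its own 6 h libraries PFKP was higher with both agents, by 0.19 with DFO (adjusted p = 0.000818) and 0.23 with T003 (adjusted p = 0.000184). PFKL, the liver-type subunit, read 97.8 and 98.6 CPM untreated, 91.5 to 92.2 in the 4 libraries of 6 h and 95.4 to 101 in those of 24 h. It was called among the 5 groups together (adjusted p = 0.0433) and in no single comparison. PFKM, the muscle type, was at 3.06 to 5.18 CPM.

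PFKFB3 makes fructose 2,6-bisphosphate, the strongest allosteric activator of phosphofructokinase, and lies at chr10:6144921-6326637 (plus strand). It read 32.0 and 31.1 CPM untreated, 30.6 and 31.7 after 6 h in DFO, 30.9 and 30.8 after 6 h of T003, 32.0 and 35.0 after 24 h of DFO, and 39.3 and 37.8 after 24 h of T003. The T003 libraries of 24 h lay above all others, and those of DFO overlapped untreated cells. The log2 difference from untreated cells was 0.29 with T003 (SE 0.0488, adjusted p = 0.00309) and 0.09 with DFO (adjusted p = 0.403). Tested directly, PFKFB3 was lower with DFO than with T003 by 0.20 on the log2 scale (95% interval of the difference -0.31 to -0.09), with an adjusted p = 0.0786 that did not pass. TIGAR, which degrades the same activator, stayed between 17.0 and 18.9 CPM and was not called. PFKFB4 was at 2.59 to 3.83 CPM.

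Aldolase needs a caution. ALDOA lies at chr16:30064279-30070420 (plus strand). It read 1182 and 1145 CPM untreated, 1133 and 1226 after 24 h of DFO and 1347 and 1285 after 24 h of T003, and was called with T003 (log2 difference 0.18, SE 0.0465, adjusted p = 0.0292). The call was lost without either untreated library or either T003 library of 24 h (adjusted p up to 0.215). RefSeq also annotates LOC112694756 over the same locus, and in the GENCODE annotation 89.8% of the exon bases of ALDOA are covered by another gene on the same strand. LOC112694756 held on average 17.6% of the ALDOA count. It read 264 and 319 CPM untreated and 150 and 176 after 24 h of T003 (log2 difference -0.83, adjusted p = 0.0309), opposite to ALDOA. Counted together, the 2 genes gave 1445 and 1463 CPM untreated and 1497 and 1461 after 24 h of T003, a log2 difference of 0.02 (SE 0.0234, adjusted p = 0.613). ALDOA was called against untreated cells with the 2 genes counted apart and not with both counted together. From 6 h to 24 h with T003, the 2 genes counted together were still called higher (log2 difference 0.08, SE 0.0234, adjusted p = 0.0375).

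**Figure D4:**
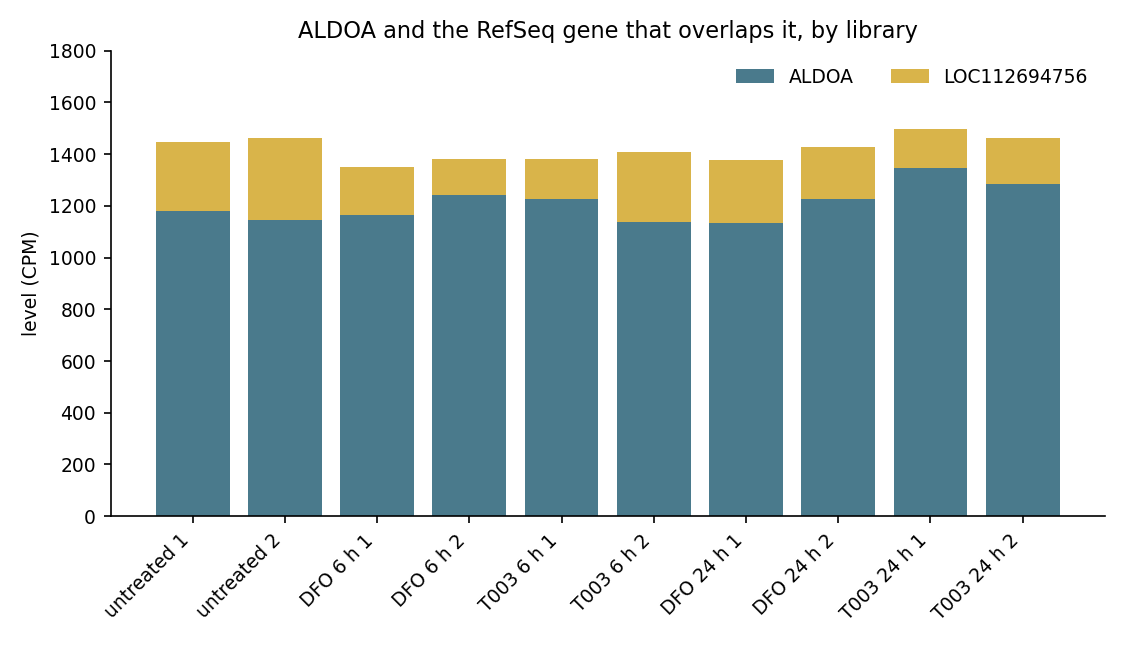
CPM of ALDOA, of the overlapping gene LOC112694756 and of both together in each of the 10 libraries. ALDOA is highest in the T003 libraries of 24 h, at 1347 and 1285, while the sum there, 1497 and 1461, spans the upper untreated value of 1463.

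GAPDH, ENO1, GPI, TPI1, PGK1 and PGAM1 stayed within a narrow band. GAPDH read 2733 and 2767 CPM untreated, 2602 and 2624 after 24 h of DFO and 2625 and 2635 after 24 h of T003. It fell by 0.07 with DFO (SE 0.0183, adjusted p = 0.0356) and by 0.06 with T003 (SE 0.0183, adjusted p = 0.0432) on the log2 scale, that is, it fell by 4.99% and 4.35%. ENO1 fell by 0.08 with DFO (SE 0.0191, adjusted p = 0.0363), from 4211 and 4258 CPM to 3986 and 4043, and was not called with T003 (log2 difference -0.05, adjusted p = 0.17). These calls sat close to the threshold: with DFO, GAPDH kept its call in 1 of the 10 fits that left out a library (adjusted p 0.0496 to 0.357), that without DFO replicate 2 of 6 h, and ENO1 in 2 of 10 (0.0456 to 0.356), those without that library or T003 replicate 1 of 6 h. With DFO the GAPDH call was also lost with no filter (adjusted p = 0.0503), and both were lost with the compared groups alone. With T003, GAPDH kept it in 3 of 10 (0.0453 to 0.3), those without either DFO library of 6 h or T003 replicate 1 of 6 h. The T003 call of GAPDH was also lost with replicate number as a block. GPI (1061 to 1121 CPM), TPI1 (656 to 704) and PGK1 (651 to 677) were not called in any comparison of the main edgeR fit. DESeq2 called GPI and TPI1 lower with DFO at 6 h. For PGK1 the differences at 24 h were -0.02 with DFO (adjusted p = 0.552) and -0.01 with T003 (adjusted p = 0.906). PGAM1 read 395 and 396 CPM untreated and 416 and 409 after 24 h of T003 (log2 difference 0.06, adjusted p = 0.147). PGAM1 shares 98.3% of its coding bases with PGAM4.

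PKM, the pyruvate kinase of muscle and proliferating cells, read 3239 and 3232 CPM untreated, 3119 and 3070 after 24 h of DFO and 3206 and 3203 after 24 h of T003. It was not called with DFO (log2 difference -0.06, adjusted p = 0.0677). Counts per gene do not separate its M1 and M2 splice forms. LDHA turns pyruvate into lactate. It read 1968 and 1968 CPM untreated, 1965 and 1973 after 24 h of DFO, and 1916 and 1944 after 24 h of T003. The log2 difference was 0.00 with DFO (95% interval -0.04 to 0.04, adjusted p = 0.989) and -0.03 with T003 (-0.07 to 0.01, adjusted p = 0.401). LDHB, the form associated with lactate oxidation, read 621 and 618 CPM untreated, 644 and 644 after 24 h of DFO and 614 and 623 after 24 h of T003.

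Among isoform families the lactate dehydrogenases and phosphofructokinases differed in make-up over the 5 groups. LDHA made up 64.9% of the LDHA and LDHB level per length in untreated cells, 65.1% and 65.5% after 6 h in DFO and of T003, and 64.0% and 64.5% after 24 h. PFKP made up 66.8% of the phosphofructokinase level untreated, 66.3% and 67.4% at 6 h, and 67.9% and 69.6% at 24 h. For each of these families the exact permutation test gave p = 0.00106, the smallest that its 945 allocations can give, and an adjusted p = 0.00476. Both calls held under the other length definitions and with each library left out, although the shares moved by few percentage points. SLC2A3 made up 44.6% of the SLC2A1 and SLC2A3 level untreated and 48.3% and 49.2% at 24 h (p = 0.0497, adjusted p = 0.0895, exact permutation test), which was not called. No call was made for the SLC16A, PFKFB, ALDO, ENO and PDK families (adjusted p = 0.906, 0.906, 0.0786, 0.906 and 0.176, exact permutation test). ALDOA and ENO1 each made up 99.8% of their family.

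**Figure D5:**
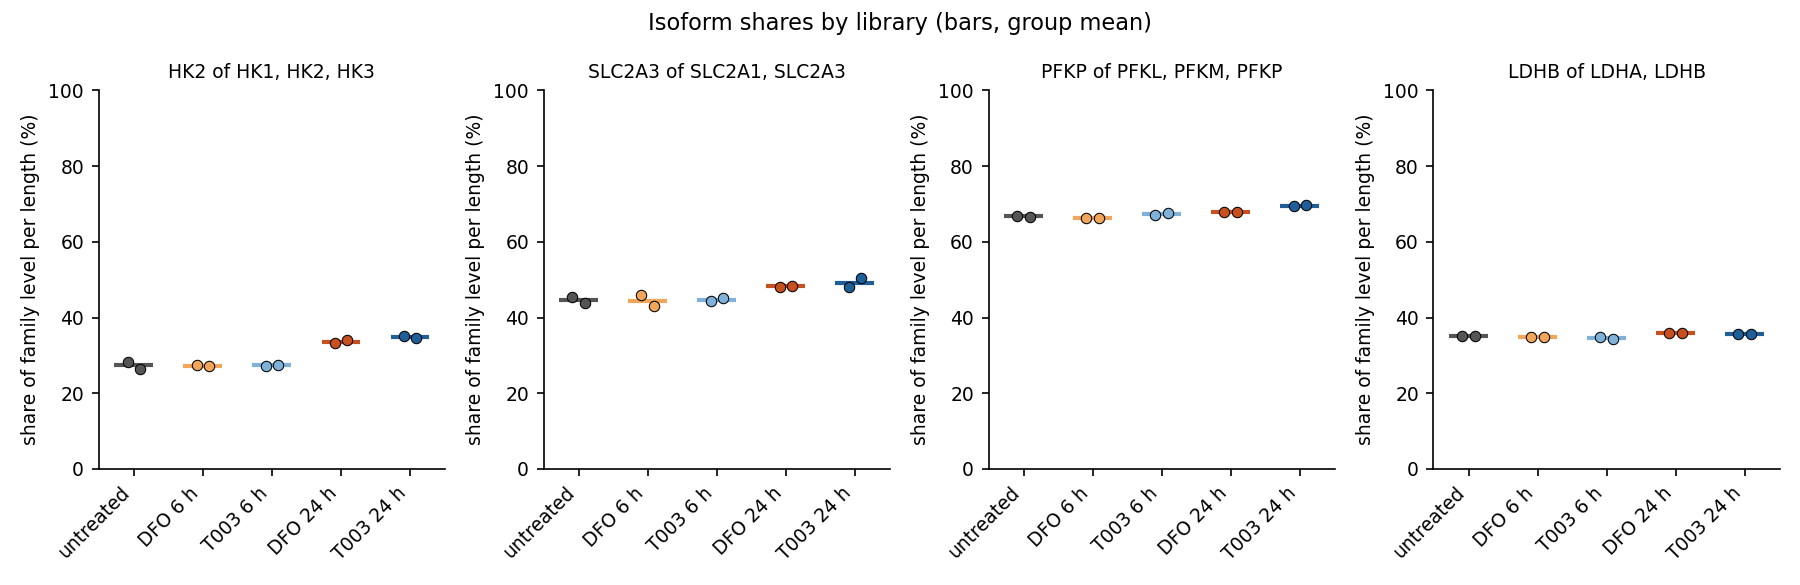
Share of an isoform in the level per length of its family, in percent, in each library (points, 2 per group) with group means (bars). HK2 moves from 27.3% in untreated cells to 33.7% and 34.8% at 24 h, while the shares of SLC2A3, PFKP and LDHB move by a few percentage points.

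RNA of the genes for the entry of pyruvate into mitochondria changed little. PDK1, a kinase that switches off pyruvate dehydrogenase and a textbook target of hypoxia-inducible factor, ranged from 20.5 to 23.3 CPM over all libraries. Its log2 difference was 0.00 with DFO (95% interval -0.15 to 0.16, adjusted p = 0.991) and 0.00 with T003 (adjusted p = 0.989). PDK3, the most abundant kinase per length, was at 92.5 to 107 CPM, and PDK2 was at 21.4 to 25.0. PDHB, the beta subunit of pyruvate dehydrogenase, read 74.7 and 75.6 CPM untreated, 72.9 and 73.5 after 24 h of DFO and 70.0 and 66.8 after 24 h of T003. It fell by 0.14 on the log2 scale with T003 (SE 0.036, adjusted p = 0.0298), a call lost without either untreated library or without T003 replicate 2 of 24 h (adjusted p up to 0.207). PDHA1, the alpha subunit, stayed between 224 and 232 CPM. The pyruvate carrier subunits MPC1 (26.0 to 29.3 CPM) and MPC2 (67.5 to 75.1 CPM) were not called. Exons of MPC2 overlap those of DCAF6 on the opposite strand by 186 bases, where reads cannot be told apart without a strand setting.

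From 6 h to 24 h, 4 members rose with DFO (11.4%, against 9.89% of all genes): SLC2A3, SLC16A1, HK2 and PFKP. That of SLC2A3 was lost without DFO replicate 2 of 6 h or of 24 h (adjusted p up to 0.0779). Among all genes 5.29% were higher and 4.60% lower. The share of members is near that of all genes. With T003 10 members were called (28.6%, against 13.5% of all genes), 7 higher (against 7.55% of genes) and 3 lower (against 5.93%). SLC2A3, SLC16A1, HK2, PFKP, PFKFB3, ALDOA and PGAM1 were higher and HK1, LDHA and PDHB lower. HK2 rose by 0.39 with DFO (adjusted p = 8.52e-05) and 0.35 with T003 (adjusted p = 0.000151), and PFKFB3 by 0.32 with T003 (adjusted p = 0.00138). The calls of ALDOA, PGAM1, LDHA and PDHB were each lost with at least 1 of the T003 libraries left out (adjusted p up to 0.319, 0.2, 0.235 and 0.224), those of ALDOA and LDHA also without an untreated library, and that of ALDOA also with DESeq2 (adjusted p = 0.0569) and with RLE scaling (0.052). Fitting replicate number as a block also ended the T003 calls of ALDOA and LDHA. Tested over the 5 groups together, 9 of 35 members differed, against 14.8% of all genes. Among genes at or above 10 CPM, 29.8% of genes and 34.6% of members differed over the 5 groups. From 6 h to 24 h with T003, 26.5% and 38.5% differed. In both cases the shares lie closer than over all genes tested. From 6 h to 24 h with DFO, 19.5% of genes and 15.4% of members differed, so there the share of members was the lower.

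Set directly against each other at 24 h, the 2 agents differed in 0 of 35 members by edgeR, against 1.34% of all genes. At an unadjusted p under 0.05 stood 10 of 35 members, against 2794 of all 20125 genes. DESeq2 called 6 (HK1, PFKP, PFKFB3, PGAM1, PKM and LDHB) and limma-voom 1 (PKM), and edgeR called PFKFB3 alone (adjusted p = 0.0445) when genes under 1 CPM were removed first. SLC16A1 differed between the agents by -0.01 on the log2 scale (95% interval -0.06 to 0.05). Calls made with T003 and not with DFO, as for PFKP and PFKFB3, are therefore not shown by the edgeR fit to differ between the agents.

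Of 45 other genes of sugar and pyruvate metabolism 28 were tested; 2 were higher with DFO at 24 h, and 3 were higher and 2 lower with T003. These are 7.14% and 17.9% of those tested, against 6.70% and 12.5% of all genes, so the share with DFO is near that of all genes. PGM2, a phosphopentomutase, read 148 and 144 CPM untreated, 178 and 180 after 24 h of DFO and 173 and 183 after 24 h of T003 (log2 differences 0.30, SE 0.028, adjusted p = 0.000139, and 0.28, SE 0.028, adjusted p = 0.000116). SLC16A7, a further monocarboxylate carrier, rose with DFO (0.27, SE 0.0561, adjusted p = 0.0169). BSG, the chaperone that brings MCT1 to the cell surface, rose with T003 (0.13, SE 0.0324, adjusted p = 0.0241), from 251 and 254 CPM to 281 and 271. HKDC1, a hexokinase-like gene, fell by 0.47 with T003 (adjusted p = 0.0152), and DLD, a shared subunit of pyruvate dehydrogenase, by 0.15 (adjusted p = 0.00428).

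In the pentose phosphate pathway, which branches off early in glycolysis, RPIA (ribose 5-phosphate isomerase) rose by 0.09 with DFO at 24 h (adjusted p = 0.0483) and by 0.10 with T003 (adjusted p = 0.0268), and H6PD fell by 0.36 with T003 (adjusted p = 0.0181). Of 14 regulators 10 were tested; 2 were higher with DFO (against 3.43% of all genes), 3 with T003 (against 7.10%) and none lower with either. MYC, a transcription factor that activates glycolytic genes, read 578 and 533 CPM untreated, 634 and 680 after 24 h of DFO and 731 and 716 after 24 h of T003 (log2 differences 0.24, adjusted p = 0.00639, and 0.38, adjusted p = 0.000251). MXI1, a MYC antagonist, rose by 0.57 with DFO (adjusted p = 0.00148) and 0.73 with T003 (adjusted p = 0.000188). TXNIP, which lowers glucose uptake, rose with T003 (0.34, SE 0.0291, adjusted p = 4.9e-05) and was not called with DFO. HIF1A, whose product is controlled mainly as a protein, was not called against untreated cells at 24 h (-0.04 with DFO, adjusted p = 0.49, and -0.08 with T003, adjusted p = 0.0833). From 6 h to 24 h with T003 it fell by 0.13 (SE 0.028, adjusted p = 0.011), and it differed over the 5 groups together (adjusted p = 0.0353). At 6 h none of the other genes of sugar and pyruvate metabolism or of the regulators was called.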

How the data were processed

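Polyadenylated RNA of 10 NK-92 libraries was analysed from 1 table of estimated counts per gene deposited by the authors, not normalized. Trimming used fastp 0.21.0, mapping to hg38 used HISAT2 2.2.1, and counting on RefSeq genes used StringTie 2.1.6, per the submitters' processing notes and the design text. No strand setting was given in the sources used here. The counts are whole numbers. Groups were taken from the sample titles.

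The 10 libraries were fitted in 1 model of 5 groups with edgeR 4.0.16 (R 4.3.3): filterByExpr (minimum count 10), TMM scaling and the quasi-likelihood F-test, with Benjamini-Hochberg adjustment over all 20125 genes. Intervals use 5 residual and 5.83 prior degrees of freedom. DESeq2 1.42.0 and limma 3.58.1 were alternatives. Gene positions came from RefSeq (GRCh38.p14). Lengths came from GENCODE MANE Select transcripts, which may differ from the RefSeq models counted, so levels and shares per length depend on them. Isoform shares were tested by exact permutation over libraries. Scripts were tested on simulated data. The members and lists were chosen with earlier results of these data known. All members were named, and other pathway genes where called against untreated cells. One item of the pentose phosphate list, and the counts over that list, are not reported here.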

Additional observations from a re-analysis of the deposited data

Results flagged for a closer look

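The log2 difference between 24 h of DFO and 24 h of T003 passed edgeR's test for 2 of the pathway's regulators. TXNIP was lower with DFO by a log2 difference of -0.31 (SE 0.0291, adjusted p = 0.0017), at 69.3 and 68.9 CPM with DFO and 84.6 and 87.0 with T003, against 66.6 and 69.3 in untreated cells. MLX, the dimer partner of the glucose-sensing factors MondoA and ChREBP, was higher with DFO by 0.16 (SE 0.0312, adjusted p = 0.0376), at 117 and 118 CPM with DFO and 105 and 105 with T003, against 112 and 108 in untreated cells. MLX was singled out after its values were seen.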

How the results depend on the processing

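No direction of a called member reversed in any fit run, and 422 planned values kept their call while 71 no longer passed. Of the values added after seeing the data, 28 kept their call and 1, that of ALDOA against untreated cells with T003, did not. Counts of called members moved in these fits. For DFO at 6 h, 0 became 6 with DESeq2 and 3 with limma-voom. For DFO at 24 h, 6 became 9 with DESeq2, 8 with limma-voom and 7 with the filter of 1 CPM. That count was 5 with replicate number as a block and 4 with no filter. For DFO at 24 h, 6 became 3 with the compared groups alone and 2 to 5 with a library left out. Between the agents at 24 h, 0 became 6 with DESeq2, 1 with limma-voom and 1 with the filter of 1 CPM. For DFO at 24 h against 6 h, 4 became 7 with DESeq2. Over the 5 groups together, 9 became 17 with DESeq2, 17 with limma-voom and 5 to 8 with a library left out, the lowest without T003 replicate 1 of 24 h. With a library left out, T003 at 24 h gave 6 to 9, DFO at 24 h against 6 h gave 3 to 5, T003 at 24 h against 6 h gave 7 to 11, and the families whose shares differed were 2 to 4 instead of 3.

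Counts over all genes moved too: DFO at 6 h 5 to 522 (DESeq2), 25 (limma-voom), 16 (no filter) and 2 (replicate block); T003 at 6 h 6 to 81 (DESeq2) and 1 (block); DFO at 24 h 1349 to 851 (groups alone); DFO at 24 h against 6 h 1991 to 1293 (groups alone); the agents at 24 h 270 to 888 (DESeq2), 446 (1 CPM filter), 117 (block) and 55 (groups alone); the agents at 6 h 0 to 14 (DESeq2). With a library left out they ran from 431 to 1383 for DFO at 24 h, 1084 to 2544 for T003 at 24 h, 950 to 1824 and 1336 to 2739 for 24 h against 6 h with DFO and T003, 14 to 229 between the agents and 1888 to 3052 over the 5 groups.

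Same-numbered libraries deviated together in some pairs of groups and against each other in others. The 10 correlations ran from -0.344 (untreated with DFO at 24 h) to 0.325 (T003 at 6 h with DFO at 24 h), and 2 were over 0.1. With no uniform pattern, the replicate numbers were not taken to pair samples. A fit with replicate number as a block called 0 and 0 members at 6 h, 5 with DFO and 8 with T003 at 24 h, 0 and 0 between the agents at 6 h and 24 h, 4 and 8 for 24 h against 6 h, and 6 over the 5 groups. The block ended the calls of HK1 with DFO (adjusted p = 0.0623) and GAPDH with T003 (0.0567) at 24 h, and of ALDOA (0.0688) and LDHA (0.0769) for T003 at 24 h against 6 h. It ended no other call of a member in a comparison of 2 groups.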
